A study of Caenorhabditis elegans with 12 samples.

Results

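A set of 8 *dod* (downstream of DAF-16) genes was followed across age and genotype in whole adults of *C. elegans*: *dod-3*, *dod-6*, *dod-17*, *dod-19*, *dod-20*, *dod-22*, *dod-23* and *dod-24*. They were chosen by name, and 8 of 8 were found among the 22057 genes obtained when isoforms were summed per gene. Of these 8, 7 held enough reads to be tested, among 14575 genes tested in all. The remaining gene, *dod-20*, drew 48 estimated counts over the 12 libraries and is given as values. RNA came from 4 groups with 3 libraries each, which the study describes as biological replicates: sixth-day and first-day adults of the strain JK574, which carries *fog-2(q71)* and is written *fog-2(lf)*, and sixth-day and first-day adults of N2, the wild type. XX animals of *fog-2(lf)* make oocytes but no sperm of their own, whereas N2 XX animals are self-fertile hermaphrodites while their sperm last. By the study's account, sixth-day N2 had laid all their eggs and used up their sperm, so first-day wild type is the only group with sperm. Age and loss of sperm therefore cannot be told apart in wild type, and both sixth-day groups lack sperm. All animals were synchronized and fed *E. coli* OP50, each library came from a pool of whole worms, and 1 allele stands for the genotype. In such bulk samples fewer cells of a type and less RNA per cell cannot be told apart.

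DAF-16 is the FOXO transcription factor at the end of the insulin/IGF pathway. When the insulin-like receptor DAF-2 signals, kinases downstream of it keep DAF-16 out of the nucleus, and when signaling is low DAF-16 enters the nucleus, where it turns on genes of stress resistance and long life. The *dod* genes were named for RNA levels that depend on *daf-16* in *daf-2* animals. Of the 8 genes, *dod-3* and *dod-6* belong to the class that DAF-16 raises (class 1), and the other 6 belong to the class that falls when DAF-16 is active (class 2), a class whose promoters are tied to the zinc finger factor PQM-1. The *dod-17*, *dod-22* and *dod-24* genes encode proteins with CUB-like domains, and members of this family are known as intestinal genes that respond to pathogens.

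The genes lie on 4 chromosomes (WBcel235). On chromosome IV, *dod-24* (C32H11.12, 12940106 to 12941354), *dod-22* (F55G11.5, 12965374 to 12967392) and *dod-17* (K10D11.1, 12976303 to 12978343) lie near each other, with 24019 bases between *dod-24* and *dod-22* and 8910 bases between *dod-22* and *dod-17*. On chromosome V, *dod-19* (ZK6.10, 411782 to 414759) and *dod-20* (B0554.6, 422433 to 424177) are 7673 bases apart, and *dod-3* (C24B9.9, 2730622 to 2731098) is farther along the same chromosome. The *dod-6* gene (T20G5.7) is on chromosome III from 10197716 to 10198352, and *dod-23* (F49E12.2) is on chromosome II from 8398161 to 8399164. These spans cover the whole annotated genes, exons and introns together. The files list 1 isoform for each gene except *dod-22*, which has 2 isoforms with 47 and 40 estimated counts over the 12 libraries.

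Libraries held 21162593 to 38775999 estimated counts, and the 8 genes together took 0.017% to 0.0503% of them. The *fog-2* gene was measured at 3.20 to 3.53 CPM (counts over library size after TMM scaling) in sixth-day *fog-2(lf)*, 3.92 to 4.86 CPM in first-day *fog-2(lf)*, 53.5 to 58.5 CPM in sixth-day wild type and 44.5 to 52.9 CPM in first-day wild type, so each library matched its labelled genotype. Replicate 2 of first-day wild type stood apart: 18.6% of the tested genes differed more than 2-fold from the mean of its 2 fellow libraries, against 4.13% to 13.9% for the other 11 libraries. The 11 sperm markers summed to 69.5 CPM in this library and to 2.12 and 4.20 CPM in replicates 1 and 3. Their sums were 1.24 to 1.46 CPM in sixth-day *fog-2(lf)*, 1.05 to 6.56 CPM in first-day *fog-2(lf)* and 2.06 to 4.02 CPM in sixth-day wild type. Outside replicate 2, these markers thus did not set first-day wild type apart. The 8 hypodermis and cuticle markers summed to 1389 CPM in replicate 2, against 526 and 365 CPM in replicates 1 and 3. Most of the hypodermis and cuticle sum in first-day wild type came from *col-19* (688 ± 540 CPM), with *nhr-23* next at 59.0 ± 9.45 CPM (SD, n = 3 each). Because replicate 2 stood apart, the age changes of the tested *dod* genes in wild type are also given without it. So are the *dod* genes called between genotypes on the first day or in the interaction. Values of markers, listed genes, neighboring genes and nearest patterns are given with it only, and its part in them was not tested.

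The 4 most abundant genes of the family were *dod-23*, *dod-3*, *dod-6* and *dod-19*, at 176, 169, 140 and 67.1 TPM (a level per transcript length) as means of the 12 libraries, placing them at ranks 919, 963, 1187 and 2782 of the 22057 genes. The other 4 genes were rare, with *dod-24* at 2.43 TPM, *dod-17* at 0.889 TPM, *dod-22* at 0.232 TPM and *dod-20* at 0.115 TPM. The ranges of neighbors in this order overlapped, with the exception of *dod-19* and *dod-24*: no library had less than 29.3 TPM of *dod-19* and none had more than 6.37 TPM of *dod-24*. The order of the abundant genes differed between the ages. In sixth-day animals *dod-6* had the highest mean, at 302 ± 64.4 TPM in *fog-2(lf)* and 210 ± 81.3 TPM in wild type (SD, n = 3 each). In sixth-day *fog-2(lf)* its libraries lay above those of the other 3 genes, and in sixth-day wild type they overlapped those of *dod-23* (169 ± 42.8 TPM, SD, n = 3), so that these 2 did not differ beyond their spread. In first-day animals its mean was the fourth, at 35.6 ± 20.1 TPM in *fog-2(lf)* and 13.9 ± 8.06 TPM in wild type (SD, n = 3 each), behind *dod-3*, *dod-23* and *dod-19*. In first-day *fog-2(lf)* its range of 23.3 to 58.9 TPM held that of *dod-19* (37.3 to 44.8 TPM), and in first-day wild type the ranges of these 2 genes did not overlap. The lead passed on the first day to *dod-3* in *fog-2(lf)* (163 ± 31.8 TPM, SD, n = 3), ahead of *dod-23* (116 ± 26.7 TPM, SD, n = 3), and in wild type these 2 genes did not differ beyond their spread, at 259 ± 141 TPM for *dod-3* and 262 ± 128 TPM for *dod-23* (SD, n = 3 each).

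**Figure D1:**
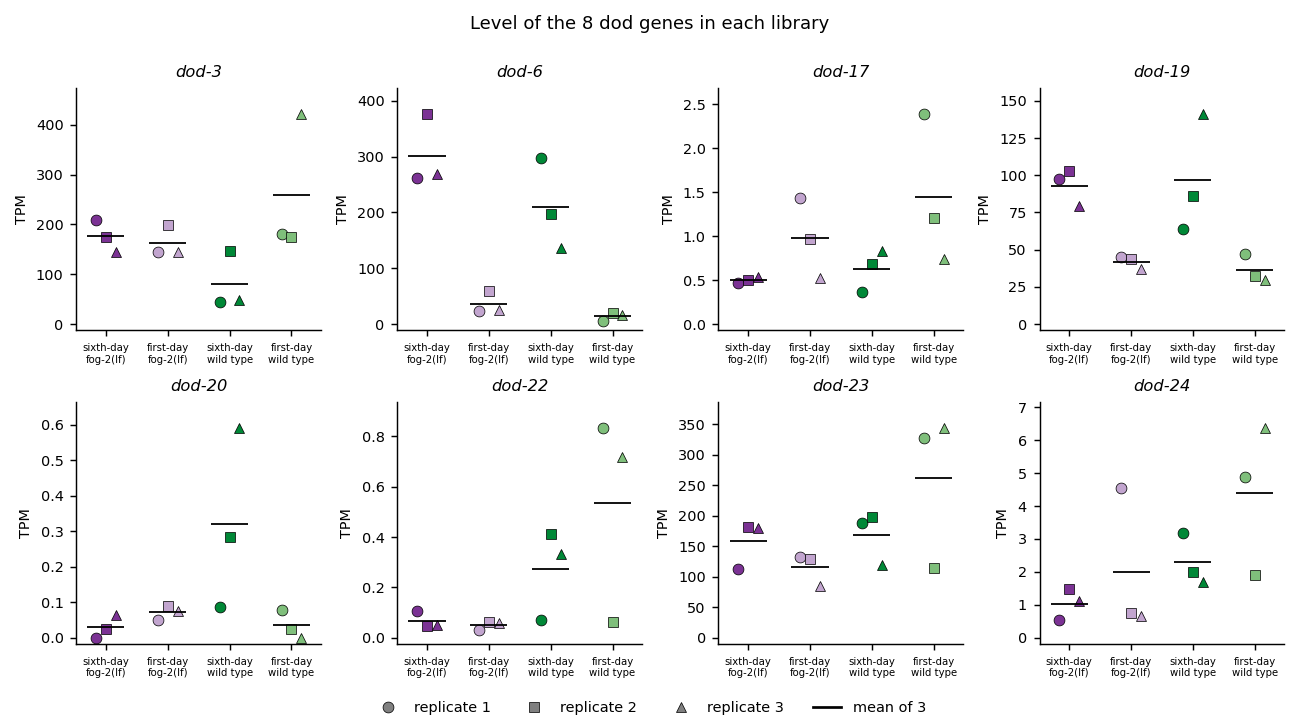
Level of each *dod* gene in TPM (linear axes that include 0, a scale of its own in each panel) in the 4 groups. Each symbol is a library, its shape gives the replicate number, and the line is the mean of 3 libraries. The sixth-day libraries of both genotypes stand above the first-day libraries for *dod-6* and *dod-19*, and *dod-3* is low in 2 of the 3 sixth-day wild-type libraries.

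The first question was which *dod* genes differed between the sixth and the first day of adulthood. In both genotypes *dod-6* and *dod-19* were higher on the sixth day. In wild type, *dod-3*, *dod-17* and *dod-23* were lower on the sixth day, and in *fog-2(lf)* none of these 3 passed the test. Of the 7 tested genes, 2 were called higher and 0 lower in *fog-2(lf)*, and 2 were called higher and 3 lower in wild type (quasi-likelihood test of edgeR, with a threshold of 0.1 on the Benjamini-Hochberg adjusted p; SE, standard error). The background is high: 39.2% of all tested genes were called for age in *fog-2(lf)* (18% higher, 21.1% lower) and 48.8% in wild type (23.4% higher, 25.4% lower), and the counts of 2 and 5 of 7 stand against these shares. The median log2 fold change of the 7 genes was 0.37 in *fog-2(lf)* and -1.33 in wild type, against -0.029 and -0.003 over all genes tested. Neither class moved as 1 group: the 2 class 1 genes went in opposite directions in wild type, and class 2 held *dod-19*, which was higher, beside *dod-17* and *dod-23*, which were lower.

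**Figure D2:**
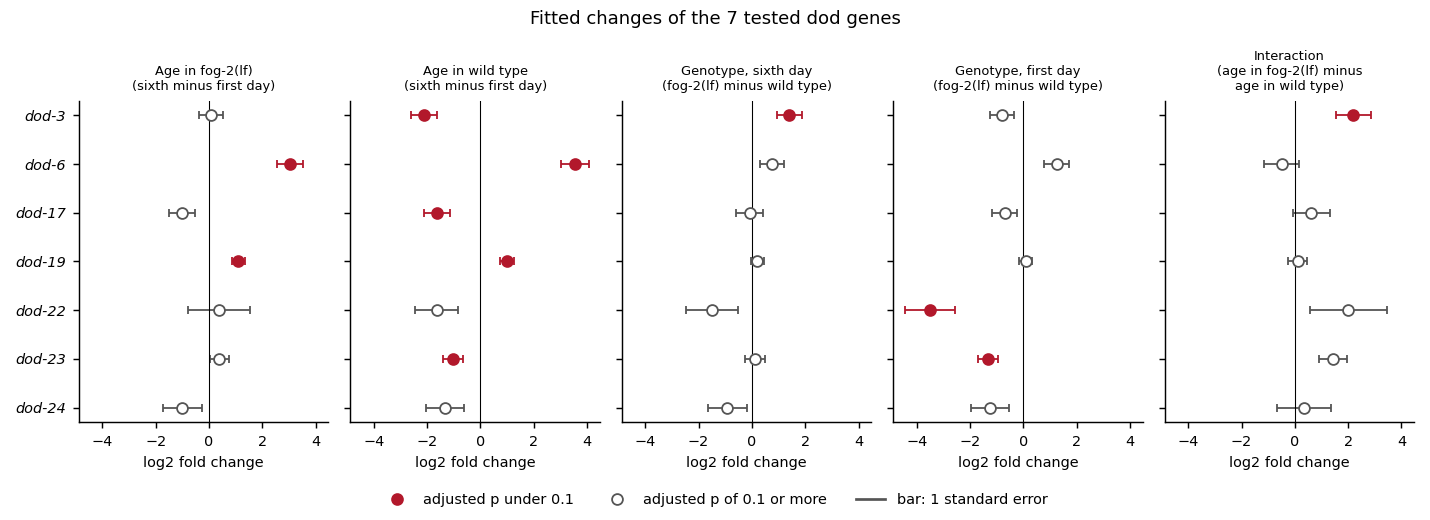
Log2 fold change (horizontal axis) of the 7 tested *dod* genes in the 4 comparisons of groups and in the interaction, with bars of 1 SE. Filled points passed an adjusted p under 0.1 in the quasi-likelihood test of edgeR. For *dod-6* the age change was 3.05 in *fog-2(lf)* and 3.55 in wild type, and *dod-3* is the gene that passed in the interaction, at 2.20.

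The change of *dod-6*, which encodes a small ShK-domain protein, was the largest of the family with age. It was at 116, 156 and 107 CPM in sixth-day *fog-2(lf)*, against 10.3, 24.3 and 11.2 CPM in its first-day animals. In wild type it was at 110, 70.1 and 46.8 CPM on the sixth day, against 2.38, 9.27 and 7.83 CPM on the first. No sixth-day library of either genotype overlapped a first-day library, a pattern also seen in 50.5% of all tested genes in *fog-2(lf)* and 48.5% in wild type. The log2 fold change was 3.05 (SE 0.49, adjusted p = 0.00102) in *fog-2(lf)* and 3.55 (SE 0.51, adjusted p = 0.000346) in wild type by the same test. These are 8.26-fold and 11.7-fold differences, at ranks 145 and 333 from the top of the 14575 genes tested. The wild-type value was 3.95 with replicate 2 of the first day left out and 3.14 with replicate 1 of the first day left out.

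The *dod-19* gene rose by a similar amount in both genotypes. It was at 153, 151 and 113 CPM in sixth-day *fog-2(lf)*, against 70.3, 64.3 and 59.6 CPM in its first-day animals. In wild type it was at 83.4, 108 and 172 CPM on the sixth day, against 80.5, 51.9 and 50.0 CPM on the first. All sixth-day libraries were above the first-day libraries of their genotype, in wild type by a narrow margin. The log2 fold change was 1.10 (SE 0.25, adjusted p = 0.00726) in *fog-2(lf)* and 0.99 (SE 0.25, adjusted p = 0.00927) in wild type by the same test, and the wild-type value was 0.88 with replicate 2 of the first day left out. It was lowest, at 0.65 (adjusted p = 0.0402), with replicate 3 of the sixth day left out.

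The class 1 gene *dod-3* differed with age in wild type. Sixth-day wild type had 13.8, 44.1 and 13.7 CPM, against 73.5, 66.4 and 172 CPM in first-day wild type. The groups did not overlap, with replicate 2 high among the sixth-day libraries and replicate 3 high among the first-day libraries. The gene fell by 2.12 on the log2 scale (SE 0.48, edgeR adjusted p = 0.00478), a 4.34-fold difference, and the value was -2.36 with replicate 2 of the first day left out. The fall was smallest, at -1.56 (edgeR adjusted p = 0.0169), with replicate 3 of the first day left out. In *fog-2(lf)* the *dod-3* gene was at 78.1, 61.5 and 48.9 CPM on the sixth day, against 54.2, 69.4 and 54.9 CPM on the first. Here the libraries overlapped, and the fitted change was 0.08 (SE 0.46, edgeR adjusted p = 0.916).

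The 2 other called decreases in wild type were smaller. The *dod-17* gene, which encodes a CUB-like protein, was at 0.371, 0.677 and 0.795 CPM in sixth-day wild type (12 to 26 estimated counts), against 3.20, 1.52 and 0.978 CPM in first-day wild type (17 to 89 counts). It fell by 1.64 (SE 0.49, edgeR adjusted p = 0.0208), with no overlap, and with replicate 1 of the first day left out the value was -1.03 with an adjusted p of 0.107, while leaving out replicate 2 gave -1.80. In limma on log2(TPM + 0.5) the value was -0.72 (adjusted p = 0.0656). In *fog-2(lf)* the *dod-17* libraries were at 0.571, 0.565 and 0.595 CPM on the sixth day, against 1.77, 1.12 and 0.653 CPM on the first. They did not overlap either, but the change of -1.03 did not pass (SE 0.49, edgeR adjusted p = 0.136). It passed with replicate 3 of the *fog-2(lf)* first day left out (-1.32, adjusted p = 0.0964) or replicate 1 of first-day wild type (-1.03, adjusted p = 0.0864), and with the 6 *fog-2(lf)* libraries alone (-1.02, adjusted p = 0.0725).

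The *dod-23* gene was at 103.9, 105 and 61.4 CPM in sixth-day wild type, against 235.4, 76.9 and 247 CPM in first-day wild type. The groups overlapped, with replicate 2 of the first day low. It fell by 1.05 (SE 0.37, edgeR adjusted p = 0.0439), and by 1.42 without that replicate (adjusted p = 0.0012). The call was lost without replicate 1 or replicate 3 of first-day wild type (-0.84 and -0.80, adjusted p = 0.135 and 0.139), without the third library of sixth-day wild type (-0.83, adjusted p = 0.15), with library totals in place of TMM (-0.61, adjusted p = 0.168), in limma on log2(TPM + 0.5) (-0.50, adjusted p = 0.284) and with the 6 wild-type libraries alone (-1.04, adjusted p = 0.105). In *fog-2(lf)* it was at 74.4, 112 and 107 CPM on the sixth day, against 87.5, 79.4 and 57.1 CPM on the first, with overlap and a change of 0.39 (SE 0.37, edgeR adjusted p = 0.463).

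The CUB-like genes *dod-24* and *dod-22* were not called for age, and the gene *dod-20*, below the low-count filter, was not tested. Sixth-day wild type had 3.21, 1.93 and 1.59 CPM of *dod-24*, against 6.41, 2.33 and 8.34 CPM in first-day wild type (-1.33, SE 0.72, edgeR adjusted p = 0.161). In *fog-2(lf)* it was at 0.642, 1.67 and 1.21 CPM on the sixth day, against 5.47, 0.853 and 0.816 CPM on the first (-1.002, SE 0.73, edgeR adjusted p = 0.332), where replicate 1 of the first day set the direction: without it the change was 0.50 (adjusted p = 0.581). With the same library left out the wild-type change passed (-1.34, adjusted p = 0.0517), as it did without replicate 2 of first-day wild type (-1.71, adjusted p = 0.0748) and with the 6 wild-type libraries alone (-1.33, adjusted p = 0.0846).

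For *dod-22*, sixth-day wild type had 2, 11 and 9 estimated counts, against 31, 2 and 18 counts in first-day wild type, and the change of -1.64 (SE 0.81, edgeR adjusted p = 0.126) became -2.22 with an adjusted p of 0.0101 without replicate 2 of the first day. In *fog-2(lf)* there were 4, 2 and 2 counts on the sixth day, against 1, 3 and 2 on the first, and a change was not detectable at this depth (0.37, SE 1.15, edgeR adjusted p = 0.835). For *dod-20*, sixth-day wild type had 3, 9 and 19 counts, against 3, 1 and 0 counts in first-day wild type, which is 31 against 4 in all. Scaled for depth, the ratio of these sums was 6.04 (exact 95% interval 2.13 to 23.5, counting error only, which leaves out the spread between libraries). Without the low-count filter *dod-20* could be fitted, and its log2 fold change of 2.501 for age in wild type passed the threshold (SE 0.97, edgeR adjusted p = 0.0751). In *fog-2(lf)* it had 0, 1 and 3 counts on the sixth day, against 2, 4 and 3 on the first.

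Intestinal markers moved with age as well. The 11 markers summed to 498 to 539 CPM in sixth-day *fog-2(lf)*, against 1021 to 1459 CPM in first-day *fog-2(lf)*, and to 476 to 645 CPM in sixth-day wild type, against 2939 to 3933 CPM in first-day wild type. Of the 11, 5 fell and 0 rose in *fog-2(lf)*, and 8 fell and 0 rose in wild type, and none was at 0 in any group. Of the 7 body muscle markers, 6 fell and 1 rose in *fog-2(lf)*, and 5 fell and 1 rose in wild type. The decreases of *dod-3*, *dod-17* and *dod-23* in wild type ran in the direction of the intestinal markers and the increases of *dod-6* and *dod-19* ran against it, and the part of the tissue makeup in these results was not tested.

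The second question was which *dod* genes differed between the genotypes. On the sixth day 1 of the 7 tested genes, *dod-3*, was higher in *fog-2(lf)* and 0 were lower, where 20.3% of all tested genes were called (9.83% higher, 10.5% lower). On the first day *dod-23* and *dod-22* were lower in *fog-2(lf)* and 0 were higher, where 18.3% of all tested genes were called (7.73% higher, 10.6% lower). The median log2 fold change of the 7 genes was 0.12 on the sixth day and -0.80 on the first day, against -0.02 and -0.01 over all genes tested. The first-day comparison and the age comparison in wild type use the same first-day wild-type libraries, and the other shared groups recur in the same way, so the results are not independent of those for age.

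On the sixth day *dod-3* was at 78.1, 61.5 and 48.9 CPM in *fog-2(lf)*, against 13.8, 44.1 and 13.7 CPM in wild type. The groups did not overlap, which was so for 43.9% of all tested genes in this comparison. The log2 fold change was 1.40 (SE 0.47, edgeR adjusted p = 0.0733), a 2.63-fold difference. It failed the threshold when replicate 1 or replicate 2 of sixth-day *fog-2(lf)* was left out (1.21 and 1.41, adjusted p = 0.217 and 0.15), and when replicate 1 or replicate 3 of sixth-day wild type was left out (1.12 in either case, adjusted p = 0.206 and 0.2), and with isoforms in place of gene sums (1.39, adjusted p = 0.148). The difference was 2.19 (adjusted p = 0.0306) with replicate 2 of the sixth-day wild type left out. The remaining 6 genes differed by -1.50 to 0.74 on the sixth day, and none of them passed, although *dod-6* did with the 6 sixth-day libraries alone (0.73, adjusted p = 0.0987). For *dod-20* there were 0, 1 and 3 counts in sixth-day *fog-2(lf)*, against 3, 9 and 19 in sixth-day wild type, a ratio of 0.12 of the sums (exact 95% interval 0.0306 to 0.338, counting error only). Fitted without the low-count filter, the log2 fold change of *dod-20* was -2.94 and passed (SE 0.96, edgeR adjusted p = 0.0815).

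On the first day *dod-23* was at 87.5, 79.4 and 57.1 CPM in *fog-2(lf)*, against 235.4, 76.9 and 247 CPM in wild type. The lowest wild-type library, replicate 2, lay within the range of *fog-2(lf)*. The gene was lower by 1.32 on the log2 scale in the fit (-1.32, SE 0.38, edgeR adjusted p = 0.048) and by more without that replicate (-1.69, adjusted p = 0.00145). The call was lost when *fog-2(lf)* replicate 2 or 3 was left out (-1.36 and -1.16, adjusted p = 0.105 and 0.162), when wild-type replicate 1 or 3 was left out (-1.11 and -1.08, adjusted p = 0.123 and 0.12), in limma on log2(TPM + 0.5) (-1.05, adjusted p = 0.109), with the 6 first-day libraries alone (-1.31, adjusted p = 0.141) and with isoforms in place of gene sums (-1.29, adjusted p = 0.104).

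The *dod-22* call on the first day rests on few reads. The *fog-2(lf)* libraries had 1, 3 and 2 estimated counts, against 31, 2 and 18 in wild type. The fitted log2 fold change was -3.51 (SE 0.95, edgeR adjusted p = 0.0404), and the ratio of the summed counts, 6 against 51 and scaled for depth, was 0.0888 (exact 95% interval 0.0311 to 0.207, counting error only). Replicate 2 of wild type was as low as the *fog-2(lf)* libraries, and without it the value was -4.08 (adjusted p = 0.00267). In limma on log2(TPM + offset) the difference was -1.72, -0.81 and -0.51 at offsets of 0.1, 0.5 and 1 (adjusted p = 0.0917, 0.0907 and 0.0918), a scale on which low levels give smaller values. The call was lost when *fog-2(lf)* replicate 1 or 3 was left out (-3.25 and -3.57, adjusted p = 0.119 and 0.12) or wild-type replicate 1 was (-3.01, adjusted p = 0.11), and the gene was left out where 5 counts were asked of 47% of libraries.

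In the same comparison *dod-6* was at 10.3, 24.3 and 11.2 CPM in *fog-2(lf)*, against 2.38, 9.27 and 7.83 CPM in wild type. It was the 1 gene of the 7 whose first-day groups did not overlap, a pattern found in 26.3% of all tested genes. The difference of 1.24 missed the threshold (SE 0.48, edgeR adjusted p = 0.119), and passed in DESeq2 (1.23, adjusted p = 0.0442), with library totals (1.40, adjusted p = 0.0684), in limma on log2(TPM + 0.5) (1.41, adjusted p = 0.0944) and without replicate 2 of first-day wild type (1.65, adjusted p = 0.0655). The class 2 gene *dod-24* had a value of -1.25 (SE 0.72, edgeR adjusted p = 0.271), which became -2.76 with an adjusted p of 0.0374 once *fog-2(lf)* replicate 1 was left out. The values of *dod-3*, *dod-17* and *dod-19* were -0.80, -0.70 and 0.09, and none of them passed, and *dod-20* had 2, 4 and 3 counts in *fog-2(lf)*, against 3, 1 and 0 in wild type. Of the 11 intestinal markers, 5 were lower and 0 higher in *fog-2(lf)* on the first day, and 1 was lower and 1 higher on the sixth. Their part in the *dod-22* and *dod-23* values was not tested.

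The third question was whether the age difference itself depended on genotype, which the interaction term tests. It was called for 1 of the 7 genes, *dod-3*, where 15.3% of all tested genes were called (7.36% above 0, 7.92% below 0). The age change of *dod-3* was 0.08 in *fog-2(lf)* and -2.12 in wild type, and the interaction was 2.20 (SE 0.65, edgeR adjusted p = 0.063), at rank 270 from the top of the 14575 genes. This estimate stayed above 0 under each of 23 alternatives, from 1.64 to 2.99, and was 2.44 (adjusted p = 0.034) without replicate 2 of first-day wild type. It missed the threshold when any of 7 libraries was left out: replicates 1 and 2 of sixth-day *fog-2(lf)* (2.01 and 2.21), first-day *fog-2(lf)* replicates 1 and 3 (2.14 and 2.14), replicates 1 and 3 of sixth-day wild type (1.92 and 1.92) and replicate 3 of first-day wild type (1.64), with adjusted p from 0.101 to 0.14, and also with isoforms (2.16, adjusted p = 0.138). For *dod-23* the interaction was 1.44 (SE 0.53, edgeR adjusted p = 0.112), which passed in DESeq2 (1.45, adjusted p = 0.0372) and without replicate 2 of first-day wild type (1.81, adjusted p = 0.00851). The other 5 genes had interactions of -0.50 to 2.01 that did not pass. For *dod-6* and *dod-19*, which rose in both genotypes, the interaction was -0.50 (SE 0.66) and 0.11 (SE 0.35). Of the 11 intestinal markers, 4 had an interaction called above 0 and 0 below, and their part in the *dod-3* value was not tested.

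**Figure D3:**
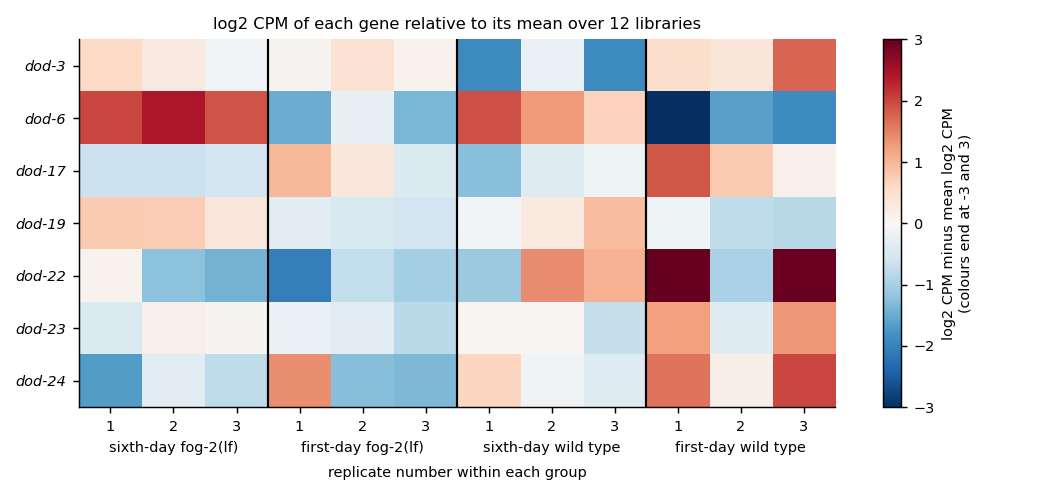
Log2 CPM of the 7 tested *dod* genes (rows) in the 12 libraries (columns, by group and replicate number), as the difference from the gene's mean over the libraries. Red is higher and blue is lower, and the colors end at -3 and 3. Replicate 2 of first-day wild type is below replicates 1 and 3 for *dod-22*, *dod-23* and *dod-24*.

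Across the 12 libraries the genes did not share 1 pattern. Of the 21 pairs of tested genes, 11 had a Pearson correlation of log2 CPM above 0 and 10 below 0, with a median of 0.18. These values describe 12 libraries that share 4 groups. The most alike were *dod-23* and *dod-24*, with r = 0.75, and the correlation of their deviations from the group means was 0.71. Next came *dod-22* and *dod-23* with r = 0.72, whose rank correlation was 0.175, and *dod-6* and *dod-19* with r = 0.72 and a rank correlation of 0.741. The deviations of *dod-6* and *dod-19* within groups had r = -0.67, so they moved together between groups and apart within them. The most unlike pair was *dod-6* and *dod-17*, with r = -0.86. The 3 CUB-like genes of chromosome IV had r of 0.53 (*dod-17* and *dod-24*), 0.53 (*dod-22* and *dod-24*) and 0.41 (*dod-17* and *dod-22*). Their deviations within groups had r of 0.25, 0.13 and 0.23 in the same order, and the rank correlation of *dod-22* and *dod-24* was 0.217.

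The genes around the members did not all go in the direction of the member with age. From *dod-21*, another *dod* gene, to *dod-17* the annotation lists 13 protein-coding genes, these 2 included, in 41606 bases of chromosome IV. The genes on either side of *dod-22* fell in wild type as its own values went. F55G11.8 was at 0.417 ± 0.0701 CPM in sixth-day and 2.51 ± 1.80 CPM in first-day wild type (log2 fold change -2.58, edgeR adjusted p = 0.00462). F55G11.2 was at 0.457 ± 0.0547 and 1.67 ± 0.395 CPM (SD, n = 3 each; -1.87, edgeR adjusted p = 0.0101). F55G11.4, which ends 699 bases before *dod-17*, went the other way: it was at 145 ± 86.5 CPM on the sixth and 21.8 ± 24.3 CPM on the first day in *fog-2(lf)* (log2 fold change 2.74, adjusted p = 0.0213) and at 82.6 ± 61.7 CPM in sixth-day and 10.8 ± 3.59 CPM in first-day wild type (SD, n = 3 each; 2.94, adjusted p = 0.0132). The *dod-21* gene was below the low-count filter, with 51 counts in all. It was at 0.0102 ± 0.0177 CPM in sixth-day and 0.532 ± 0.652 CPM in first-day wild type (SD, n = 3 each), a first-day SD above the mean. How the counting divided reads among the related genes of this cluster was not tested.

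On chromosome V, the gene next to *dod-19*, *irg-8* (named for infection response), was at 23.5 CPM on the sixth and 76.8 CPM on the first day in *fog-2(lf)* (log2 fold change -1.71, adjusted p = 0.0178) and at 22.1 CPM in sixth-day and 71.6 CPM in first-day wild type (-1.70, adjusted p = 0.0143), while *dod-19* rose in both. Beside *dod-6* on chromosome III, T20G5.8 rose too, at 9.57 CPM on the sixth and 3.90 CPM on the first day in *fog-2(lf)* (1.29, adjusted p = 0.0347) and at 7.07 CPM in sixth-day and 1.39 CPM in first-day wild type (2.33, adjusted p = 0.0018). The *skpo-1* gene, 1134 bases from *dod-23*, was at 286 CPM in sixth-day and 290 CPM in first-day wild type (-0.02, adjusted p = 0.915), where *dod-23* fell.

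**Figure D4:**
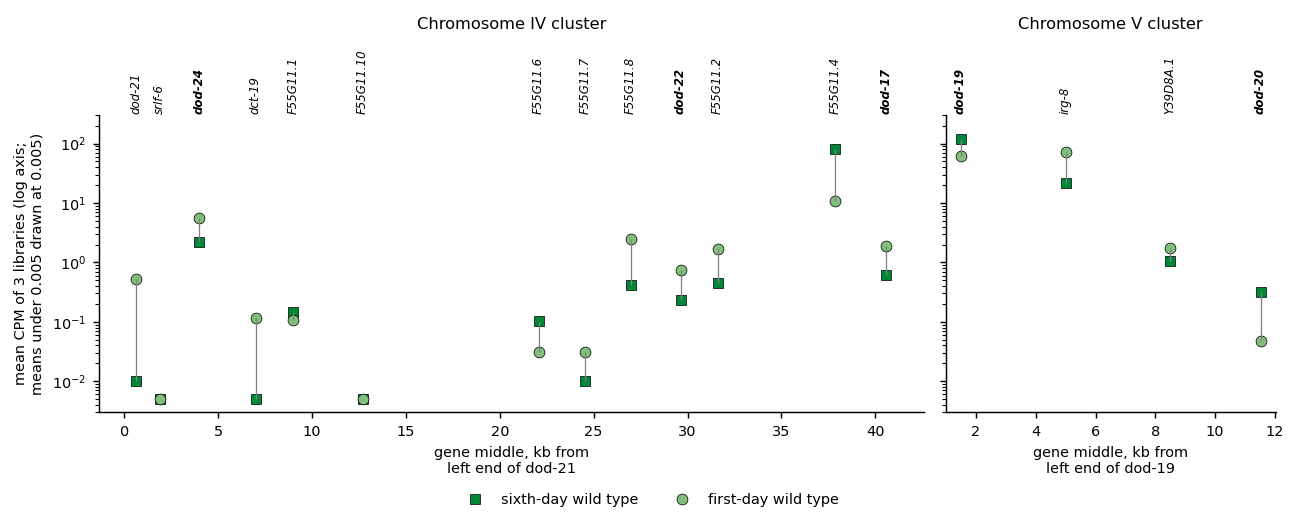
Mean CPM of 3 libraries (log axis) of the protein-coding genes from *dod-21* to *dod-17* on chromosome IV and from *dod-19* to *dod-20* on chromosome V, in sixth-day (squares) and first-day (circles) wild type, against the distance of each gene's middle from the left end of the window. Members are in bold. F55G11.4 and *dod-19* are higher on the sixth day, and their neighbors *dod-17* and *irg-8* are lower.

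In the insulin/IGF pathway itself, neither *daf-16* nor *daf-2* was called in any comparison, and nuclear entry of DAF-16 was not measured. The transcript of *daf-16* was at 173 CPM on the sixth and 179 CPM on the first day in *fog-2(lf)* and at 167 CPM in sixth-day and 160 CPM in first-day wild type, and none of its 5 tests passed (adjusted p = 0.285 to 0.782). The receptor gene *daf-2* was at 172 to 198 CPM as group means (adjusted p = 0.607 to 0.968). Of 22 genes of the insulin/IGF pathway and its DAF-16 regulators, all tested, 2 rose and 6 fell with age in *fog-2(lf)* (median log2 fold change -0.05), and 4 rose and 8 fell in wild type (median -0.04). The largest changes in wild type were in the kinase gene *sgk-1* (-1.44, adjusted p = 3e-04), *pqm-1* (-1.09, adjusted p = 0.0223) and the insulin-like peptide gene *ins-7* (1.08, adjusted p = 0.0101). In *fog-2(lf)* they were in *kri-1* (-1.15, adjusted p = 0.071), *ins-7* (0.96, adjusted p = 0.0229) and the 14-3-3 gene *ftt-2* (-0.66, adjusted p = 0.00114). Between genotypes 2 were higher and 1 lower in *fog-2(lf)* on the sixth day, and 3 were higher and 2 lower on the first. These counts stand against the shares of all tested genes called, 39.2% for age in *fog-2(lf)* and 48.8% for age in wild type. For genotype the shares were 20.3% on the sixth and 18.3% on the first day.

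The gene for PQM-1, the factor tied to class 2 promoters, was at 26.2 CPM in sixth-day *fog-2(lf)*, 17.3 CPM in first-day *fog-2(lf)*, 26.0 CPM in sixth-day wild type and, the highest, 55.5 CPM in first-day wild type. It was lower in *fog-2(lf)* on the first day (-1.68, adjusted p = 0.0145), and its interaction of 1.69 passed (adjusted p = 0.0509). Among the class 2 genes, first-day wild type had the highest mean for *dod-17*, *dod-22*, *dod-23* and *dod-24*, but the lowest for *dod-19*, and *dod-20* was highest in sixth-day wild type.

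Other genes that DAF-16 raises were called in both directions, like *dod-3* and *dod-6* in wild type. Of 20 such class 1 genes, 18 were tested, and 5 rose and 4 fell with age in *fog-2(lf)* (median -0.28), and 5 rose and 3 fell in wild type (median 0.09). The lysozyme gene *lys-7* rose in both, by 3.25 in *fog-2(lf)* (adjusted p = 0.00189) and 2.59 in wild type (adjusted p = 0.004). The desaturase gene *fat-7* fell by 3.40 in *fog-2(lf)* (adjusted p = 0.00347), and the aquaglyceroporin gene *aqp-1* fell by 4.04 in wild type (adjusted p = 0.000927). Of 21 intestinal pathogen-response genes and their regulators, 20 were tested, and 2 rose and 6 fell with age in *fog-2(lf)* (median -0.17), and 2 rose and 10 fell in wild type (median -0.71). The largest decrease in this list in wild type was that of *irg-4*, with a log2 fold change of -2.31 in *fog-2(lf)* (adjusted p = 0.0324) and -4.63 in wild type (edgeR adjusted p = 0.00105), and the largest increase that of *pals-5*, with 4.05 in *fog-2(lf)* (adjusted p = 0.00418) and 4.31 in wild type (edgeR adjusted p = 0.00205). The *pals-5* gene was near the floor on the first day, at 0.0394 CPM in *fog-2(lf)* and 0.0465 CPM in wild type, with 196 counts over the 12 libraries. Its sixth-day means were 0.713 ± 0.713 and 1.11 ± 0.339 CPM in the same order (SD, n = 3 each). The counts of both lists stand against 39.2% of all tested genes called for age in *fog-2(lf)* and 48.8% in wild type. Another *dod* gene, *dod-18*, was tested and did not pass in any comparison.

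**Figure D5:**
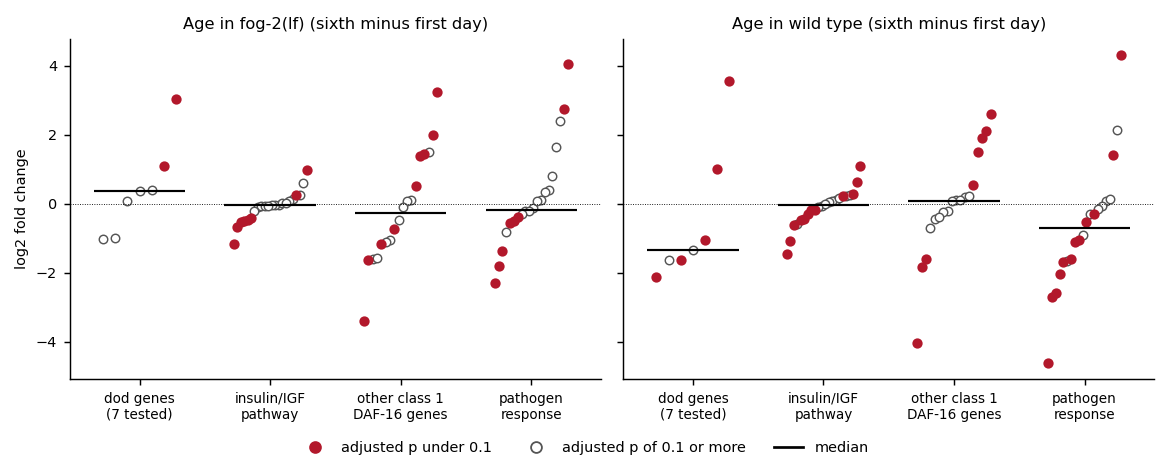
Log2 fold change with age (sixth minus first day) in *fog-2(lf)* (left) and wild type (right) for the 7 tested *dod* genes and for the tested genes of 3 lists. Filled points passed an adjusted p under 0.1 in the quasi-likelihood test of edgeR, and lines are medians, which for the *dod* genes are 0.37 in *fog-2(lf)* and -1.33 in wild type.

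The genes most like each member over the 12 libraries, among tested genes averaging 1 CPM or more, are given as a description, and each r was picked as the highest of many. For *dod-6* the nearest was *cec-7* (r = 0.97), with 272, 173, 229 and 156 CPM in sixth-day *fog-2(lf)*, first-day *fog-2(lf)*, sixth-day wild type and first-day wild type, a smaller range than that of *dod-6*. The second was C39F7.5 (r = 0.97). For *dod-3* the nearest were C50B6.7 (r = 0.95) and the sphingomyelinase gene *asm-3* (r = 0.93). In the same order of groups, *asm-3* was at 21.5 ± 13.96, 23.96 ± 10.66, 4.26 ± 3.55 and 85.6 ± 58.45 CPM (SD, n = 3 each). The *dod-19* pattern was nearest to *bud-31* (r = 0.95) and the recombinase gene *rad-51* (r = 0.93), and that of *dod-17* to the sorting nexin gene *snx-3* (r = 0.93) and *clic-1* (r = 0.91). For *dod-22* the nearest were *abhd-5.2* and C15A11.4 (r = 0.94 each), for *dod-23* they were *pes-23* (r = 0.92) and ZK813.1 (r = 0.91), and for *dod-24* they were the tyrosine aminotransferase gene *tatn-1* and *sulp-4* (r = 0.91 each).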

How the data were processed

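Poly(A) RNA of whole adults was sequenced as single reads in 12 libraries, 3 a group. Kallisto gave the authors' estimated count of reads for each of 32905 isoforms, which is deposited unscaled. TPM, also deposited by the authors from kallisto, is that count over effective length, brought to a common sum per library. The submitters' processing notes name kallisto, sleuth and WBcel235, with versions not given in the sources used here.

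Counts were rounded and, like TPM, summed by gene through sequence names, and 307 isoforms without a matching gene kept their own names. After filterByExpr and TMM scaling, a quasi-likelihood model with a term per group was fitted (edgeR 4.0.16, R 4.3.3), and genes under a Benjamini-Hochberg adjusted p of 0.1, the study's threshold, were called. Log2 fold changes are sixth minus first day, or *fog-2(lf)* minus wild type, and the SE is the size of the change over the square root of F. The fit was tested on simulated data with known changes. For each comparison 200 of the 14575 genes, drawn at random, were changed, a smaller share than was called in the data. The draw was not repeated, so the shares are a rough guide and the order of the comparisons was not tested. The fit called 51% of 2-fold and 81% of 4-fold changes for age in wild type, the highest shares. For the interaction, the lowest, it called 30% and 55%, so a gene that did not pass may still differ. Depth ran from 21162593 to 38775999 estimated counts, which limits *dod-20* and *dod-22* most.

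The members and lists were chosen with earlier results of these data known. The text names every member, the 2 genes nearest in pattern to each tested member, and from each list up to 3 called genes with the largest changes, besides *daf-16*, *daf-2* and *pqm-1*. Of the nearest protein-coding genes on each side of a member, those given were picked after their values were seen. Alternatives were DESeq2 1.42.0, RLE factors, library totals, other low-count filters, limma 3.58.1 on log2(TPM + 0.5) and with offsets of 0.1 and 1, a threshold of 0.05, the libraries of a comparison alone, isoforms, a replicate block and each library left out, where a group of 2 borrows the spread of the others. Promoter and protein sequences were not analysed here.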

Additional observations from a re-analysis of the deposited data

Results flagged for a closer look

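The age change of *dod-3* differed between genotypes by the test of the interaction term (2.20 on the log2 scale, SE 0.65, edgeR adjusted p = 0.063), with 0.08 in *fog-2(lf)* and -2.12 in wild type. Over 23 alternatives its adjusted p ran from 0.00611 to 0.14.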

How the results depend on the processing

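The 5 age and genotype results were recomputed under up to 24 alternatives. The age changes of *dod-6* and *dod-19* in both genotypes and of *dod-3* in wild type kept their direction and passed under each of the 24. Of 820 recomputed changes of single genes, 745 kept direction and side of the threshold, 36 no longer passed, 17 newly passed and 22 changed sign, and none of those 22 passed. Sign changes outside left-out libraries were those of *dod-23* on the sixth day between genotypes (0.12; -0.02 with library totals and -0.10 in limma on TPM at each of the 3 offsets) and the *dod-19* interaction (0.11; -0.18 with library totals and -0.22 in limma at each offset). With each library left out in turn, values crossed 0 for age in *fog-2(lf)* in *dod-3* (-0.11 to 0.23), *dod-22* (-0.17 to 0.66) and *dod-24* (-1.41 to 0.50), for genotype on the sixth day in *dod-17* (-0.35 to 0.14), *dod-19* (-0.01 to 0.54) and *dod-23* (-0.09 to 0.28), on the first day in *dod-19* (-0.05 to 0.35), and for the interaction in *dod-6* (-0.90 to 0.00), *dod-19* (-0.15 to 0.45) and *dod-24* (-0.09 to 1.83).

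Members called between genotypes on the sixth day numbered 1, but 2 without the low-count filter (where *dod-20* was fitted) and with the libraries of the comparison alone, 0 with isoforms and at an adjusted p under 0.05, and 0 to 2 with a library left out. On the first day the count was 2, but 1 with 5 counts asked of 47% of libraries, 0 with the libraries of the comparison alone and with isoforms, and 0 to 3 with a library left out. For the interaction it was 1, but 2 in DESeq2, 0 with isoforms and at 0.05, and 0 to 2 with a library left out. With a library left out, 2 to 3 members were called for age in *fog-2(lf)* and 4 to 7 in wild type. These ranges, and those just given for genotype and the interaction, count *dod-20* wherever it was fitted. They are thus not limited to the 7 genes of the main fit. Of the 7 genes tested in the main fit, only *dod-3*, *dod-6* and *dod-19* passed for age in wild type without replicate 1 of first-day wild type. All genes called between genotypes on the sixth day were 2957, but 4724 with the libraries of the comparison alone, 1396 with isoforms, 1719 at 0.05 and 1102 to 4210 with a library left out. On the first day they were 2667, but 605, 1550, 1483 and 1156 to 3674 under the same alternatives. For the interaction they were 2228, but 3789, 3622 and 3808 in limma at offsets of 0.5, 0.1 and 1, 855 with isoforms, 1068 at 0.05 and 1023 to 3301 with a library left out. The cause was not tested. *dod-22* has no value with 5 counts asked of 47% of libraries, with isoforms, or with the libraries of a comparison alone outside age in wild type.

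Library totals in place of TMM moved the all-gene median (log2) to 0.104 for age in *fog-2(lf)*, 0.419 for age in wild type, -0.166 and 0.136 for genotype on the sixth and first day, and -0.265 for the interaction. Of the called genes, 62.1%, 81.0%, 16.3%, 70.4% and 12.9% were then higher, against 46.0%, 48%, 48.5%, 42.2% and 48.2% with TMM, and in limma on log2(TPM + 0.5) the shares were 52.8%, 80.9%, 9.7%, 66.3% and 10%. Replicate numbers showed no clear pairing of the libraries. Deviations of same-numbered libraries from their group means had correlations of -0.131 to 0.16 across genes, over 0.1 in 3 of 12 pairs. By these deviations, 4 of 12 libraries correlated best with their own number. A replicate block left the members called at 2, 5, 1, 2 and 1, in that order, and all genes called at 5866, 7166, 3086, 2582 and 2185.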
